A study of Mus musculus with 42 samples.

Results

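The alpha subunits of voltage-gated potassium (Kv) channels were measured in hippocampal and cortical cultures and in the embryonic brain tissue of *Fmr1*KO and WT mice. The members are all genes whose symbol in the array annotation is *Kcna*, *Kcnb*, *Kcnc*, *Kcnd*, *Kcnh* or *Kcnq* followed by a number. They number 22 of the 18193 genes that have a probe set of their own, namely *Kcna1* to *Kcna7*, *Kcnc1*, *Kcnc2*, *Kcnc4*, *Kcnd1* to *Kcnd3*, *Kcnh1*, *Kcnh2*, *Kcnh3*, *Kcnh5*, *Kcnh7*, *Kcnh8*, *Kcnq1*, *Kcnq3* and *Kcnq5*. Each gene was read from its probe set with the highest mean over all 42 arrays. Other genes with such a symbol were not analysed here.

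RNA came from C57BL/6 embryos of 17 to 18 days post-conception, with no treatment. It was taken from hippocampus or cortex directly, or from neuronal cultures of these regions kept for 14 days in vitro. Both genotypes were sampled in each of these 4 systems, with 5 *Fmr1*KO and 5 WT arrays in hippocampal culture, cortical culture and cortex, and 6 of each genotype in hippocampus. *Fmr1*KO mice carry a disrupted gene for FMRP, an RNA-binding protein whose loss causes fragile X syndrome. Every array holds RNA pooled from littermates. The mouse ID of the labels recurs across systems and is read as the litter: 10 litters are present in all 4 systems, and 2 (KO 4237 and WT 3104) in hippocampus alone.

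Kv alpha subunits assemble as tetramers around a potassium-selective pore that opens when the membrane depolarizes, and the outflow of potassium then brings the membrane back towards rest. The subfamilies divide this work. Kv1 channels (*Kcna*) sit mainly on axons and at presynaptic terminals and set how readily a neuron fires; Kv3 channels (*Kcnc*) repolarize fast and permit rapid firing; Kv4 channels (*Kcnd*) carry the transient A-type current of dendrites. The *Kcnh* genes encode the EAG, ERG and ELK channels, and *Kcnq3* and *Kcnq5* encode subunits of the M-current, which muscarinic receptors suppress. Developing neurons acquire much of this set as they mature.

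Values are log2 signals after RMA, so a difference of 1 is a 2-fold change. They compare arrays for one gene and not one gene with another. Probe sets of olfactory, vomeronasal and keratin-associated genes set a background level of 5.16. Of the members, 18 (81.8%) lay above it in at least one of the 8 groups, against 69.4% of all genes; *Kcna5*, *Kcnh5*, *Kcnh7* and *Kcnq1* stayed at or below it in every group. *Fmr1* itself was 1.86-fold to 1.99-fold lower in *Fmr1*KO in the 4 systems (limma, adjusted p at most 2.60e-06), with no overlap between genotypes in any of them, which follows the labels. The share of probe sets above background was alike on all arrays (53.8% to 55.8%). RMA makes array distributions alike, so this is no check of the arrays.

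**Figure D1:**
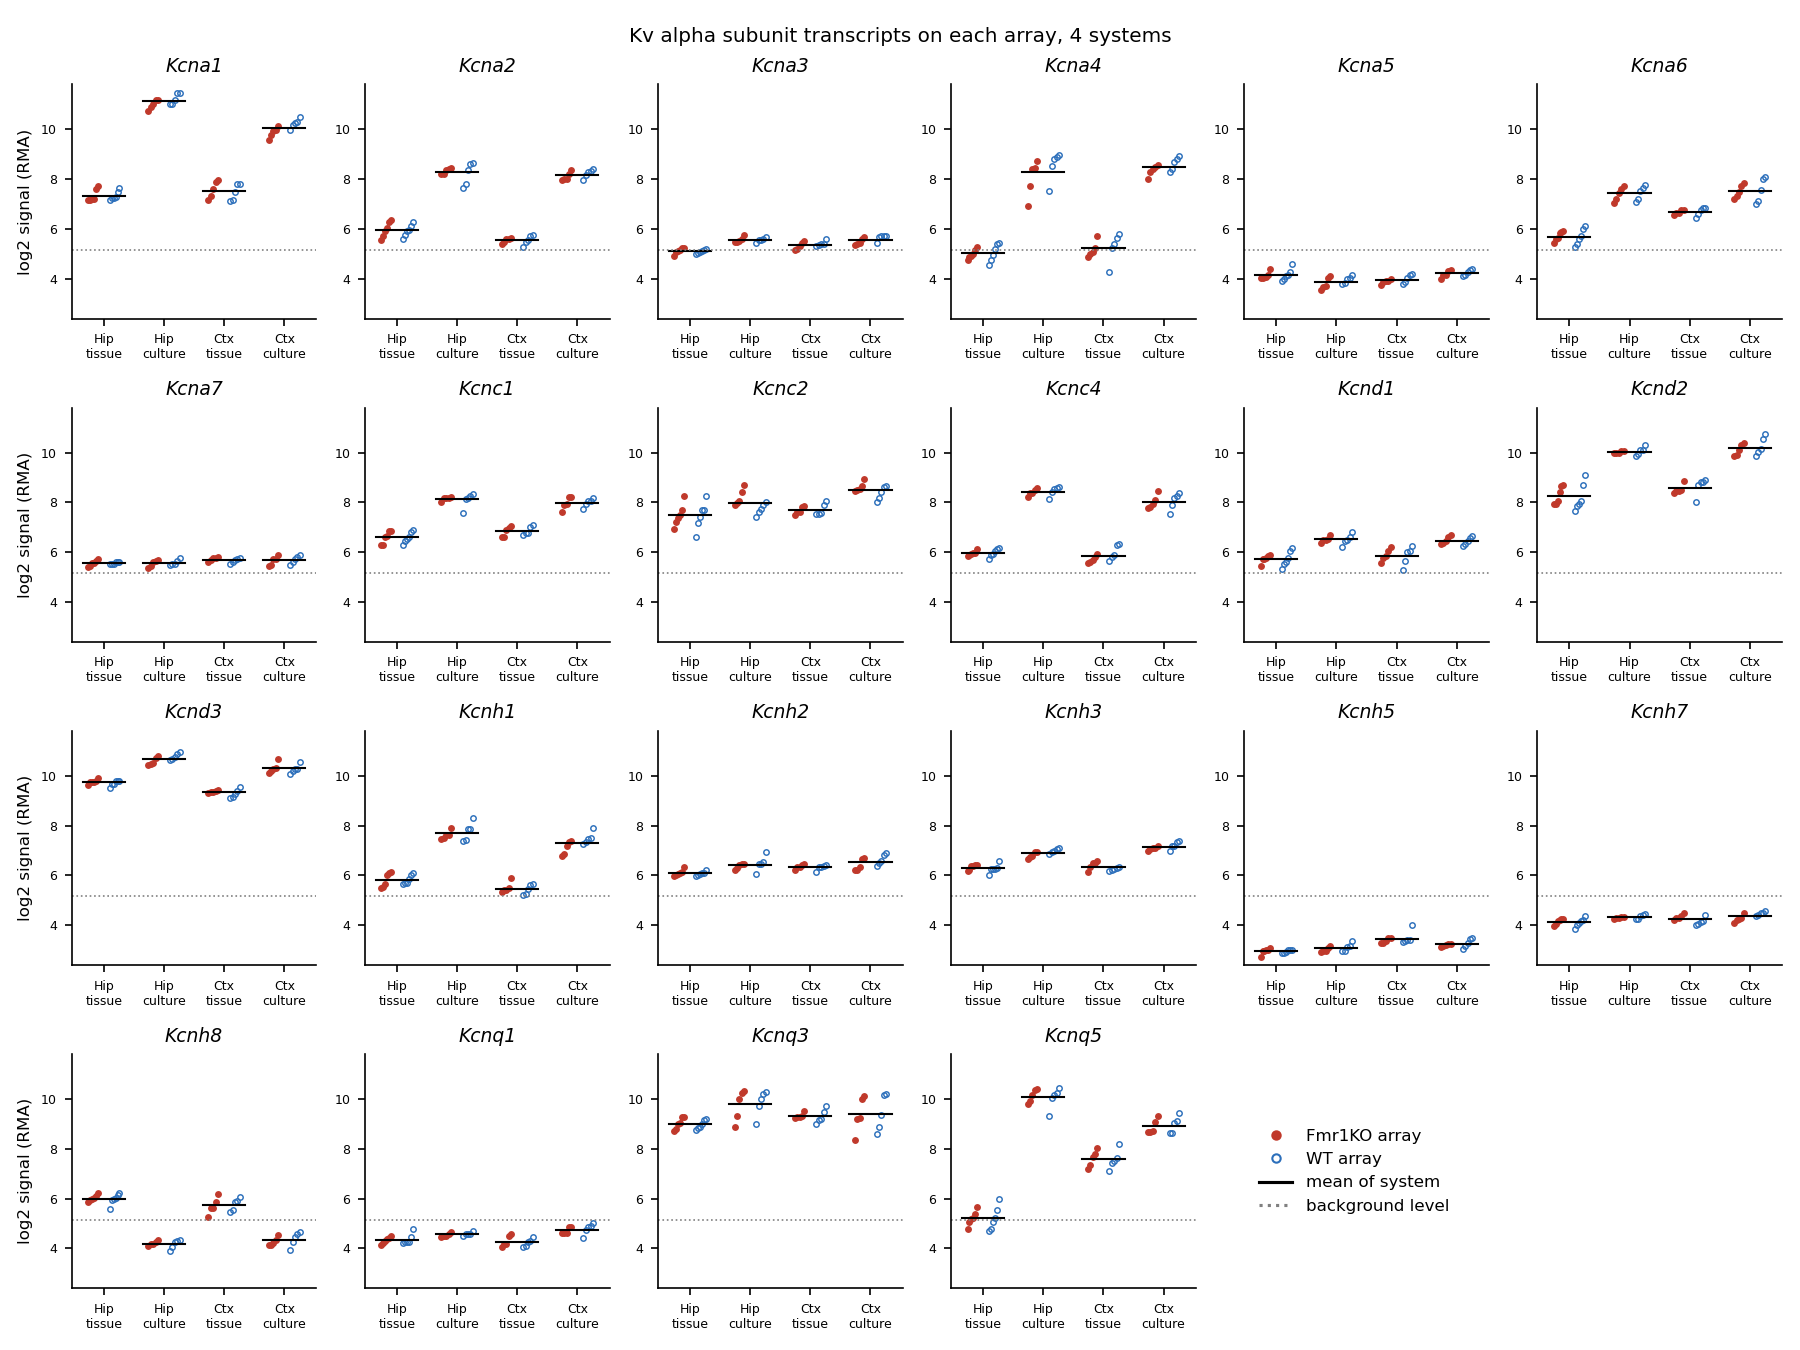
Log2 signal of each of the 22 members on every array, by system (hippocampal tissue, hippocampal culture, cortical tissue, cortical culture). Filled red points are *Fmr1*KO arrays, open blue points are WT arrays, black lines are the means of a system and the dotted line is the background level of 5.16; most members stand higher in culture and *Kcnh8* stands lower.

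Cultures were first compared with the tissue of their own region, with both genotypes averaged. The aim was to see which channels differ between embryonic brain and neuronal culture. Every culture was kept for 14 days in vitro and no tissue was, so age and culture conditions cannot be told apart here. By the paper's estimate, the cultures also hold glial cells. In hippocampal culture 18 of the 22 members were higher and 2 lower than in hippocampus at an adjusted p under 0.05 (limma, Benjamini-Hochberg over 45037 probe sets), where 35.9% and 36.2% of all genes were. In cortical culture 18 were again higher and 2 lower than in cortex, against 35.3% and 35.9% of all genes. Of the higher ones, *Kcnh7* and *Kcnq1* were at background in both regions, and *Kcna5* was also at background where it was higher in cortical culture. At least 2-fold higher were 9 members in hippocampal culture (8.40% of all genes) and 8 in cortical culture (8.24%). A fitted signal at least 2-fold lower was found for *Kcnh8* alone, in both regions, against 11.0% and 9.87% of all genes, but its culture arrays are all at background and a 2-fold fall is not shown for it. The median difference of the members was 0.79 log2 in hippocampus and 0.81 in cortex, while that of all genes was 0.02 and 0.01.

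These are bulk samples, in which a change in the share of a cell type and a change in RNA per cell cannot be told apart. Of 7 listed neuron markers, 6 were higher in hippocampal culture than in hippocampus and 1 lower, and their summed log2 level lay between 14.36 and 14.97 in culture and between 13.81 and 14.16 in tissue. In cortex 5 were higher and 1 lower, at 14.42 to 14.88 in culture and 14.21 to 14.41 in tissue. Markers of other cells moved too. Of the astrocyte markers, in hippocampus 6 of 7 were higher in culture (13.29 to 13.73, against 11.92 to 12.41 in tissue), with *Aqp4* and *S100b* at background in tissue. In cortex 7 of 7 astrocyte markers were higher (12.79 to 13.50, against 10.19 to 10.75), with *Gfap*, *Aqp4* and *S100b* at background in tissue. All 4 markers of immature neurons were lower in culture in both regions, at 11.75 to 13.12 in cultures and 14.47 to 14.77 in tissues. Microglia markers were lower in 6 of 6 cases in both regions. Markers of radial glia and dividing progenitors were lower in 7 of 7 cases in hippocampal culture, and in cortical culture 5 of 7 were lower and 1 higher. Their summed level had a median of 13.76 in hippocampus and 12.38 in hippocampal culture, and of 12.86 in cortex and 12.89 in cortical culture. The summed level of oligodendrocyte lineage markers had a median of 9.47 in hippocampus and 11.14 in hippocampal culture, with 1 of 6 genes higher and 3 lower, and of 9.57 in cortex and 12.24 in cortical culture, with 5 higher and 1 lower. That of GABAergic markers had medians of 10.48 and 11.69 in hippocampus and its culture and of 11.49 and 12.58 in cortex and its culture, with 4 of 8 genes higher in each culture, 3 lower in hippocampal and 4 lower in cortical culture. That of glutamatergic markers had medians of 11.84 and 13.19 in hippocampus and its culture and of 12.25 and 12.32 in cortex and its culture, with 2 of 4 genes higher and 2 lower in each. The part of these shifts in the channel differences was not tested.

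**Figure D2:**
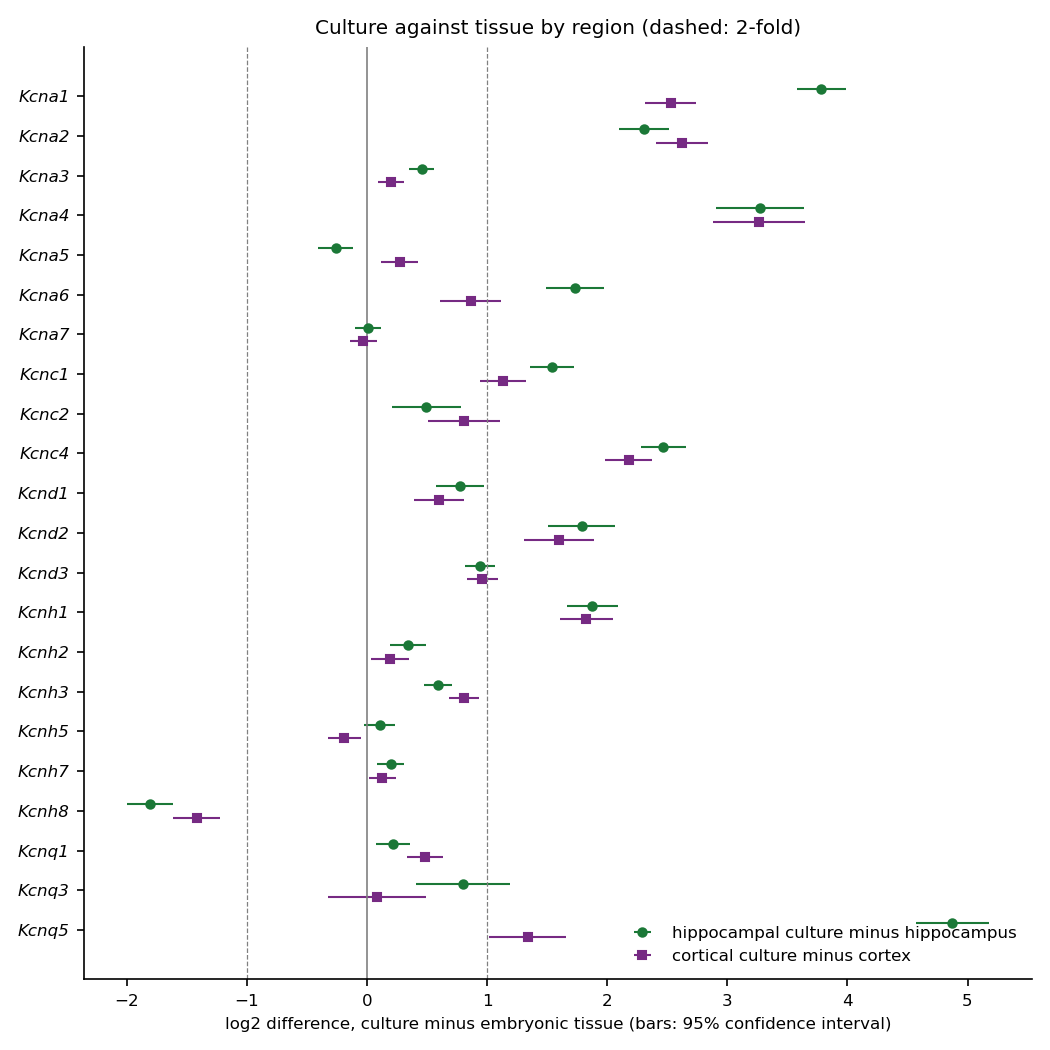
Culture minus tissue difference of each member on the log2 scale, in hippocampus (green circles) and cortex (purple squares), with 95% confidence intervals from limma and dashed lines at 2-fold. *Kcna4*, *Kcnc4*, *Kcnh1* and *Kcnd3* lie close together in the 2 regions, and *Kcnq5* is far apart, at 4.87 and 1.34.

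Promoter sequence is shown for members that stand at the ends of this comparison. *Kcna4* had fitted rises of like size in both regions, *Kcnq5* rose most in hippocampal culture, and *Kcnh8* fell. Each window runs from 250 bases before to 50 bases after a RefSeq transcript start in GRCm38.p6, 5′ to 3′ on the strand of the gene: chr2:107290339-107290638, plus strand, for *Kcna4*; chr1:21962601-21962900, minus strand, for *Kcnq5*, the upstream of its 2 windows; and chr17:52602459-52602758, plus strand, for *Kcnh8*. Capitals mark the GC box GGGCGG on either strand.
*Kcna4*: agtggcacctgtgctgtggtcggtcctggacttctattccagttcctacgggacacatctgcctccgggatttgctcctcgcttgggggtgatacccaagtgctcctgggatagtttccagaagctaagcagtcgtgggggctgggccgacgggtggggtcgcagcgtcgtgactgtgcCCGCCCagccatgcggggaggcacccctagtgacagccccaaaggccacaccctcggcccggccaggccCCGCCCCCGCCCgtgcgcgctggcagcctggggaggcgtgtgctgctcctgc
*Kcnq5*: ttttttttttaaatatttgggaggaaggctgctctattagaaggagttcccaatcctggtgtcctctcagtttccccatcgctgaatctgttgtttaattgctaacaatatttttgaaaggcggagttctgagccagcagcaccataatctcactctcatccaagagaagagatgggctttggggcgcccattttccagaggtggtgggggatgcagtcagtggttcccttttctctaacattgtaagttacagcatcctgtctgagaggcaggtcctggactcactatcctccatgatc
*Kcnh8*: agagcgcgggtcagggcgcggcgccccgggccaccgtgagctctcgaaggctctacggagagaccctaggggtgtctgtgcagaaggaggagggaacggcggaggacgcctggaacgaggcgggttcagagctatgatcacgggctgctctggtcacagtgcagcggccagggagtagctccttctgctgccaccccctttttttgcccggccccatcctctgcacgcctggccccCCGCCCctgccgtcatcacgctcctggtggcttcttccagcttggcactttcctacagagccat
The *Kcna4* window holds 3 GC boxes, of which 2 adjoin, the *Kcnh8* window 1 and the *Kcnq5* window none. RefSeq windows were at hand for 17 members (21 windows). A GC box stood in 12 of the 21 windows, which belong to 12 members. Of all 32851 windows, 35.7% hold a GC box. Neither the cyclic AMP response element TGACGTCA (1.79% of all windows) nor the TATA sequence TATAAA (13.6%) occurred in a member's window on either strand, so no overlap between motifs arose. Median GC content was 65.3% in the members' windows and 52.7% in all windows; the printed *Kcnq5* window had 46.0%. *Kcna1*, *Kcnd1*, *Kcnh3*, *Kcnq1* and *Kcnq3* have no window in the table used.

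Among the Kv1 genes, 4 of the 7 were at least 2-fold higher in hippocampal culture. *Kcna1*, whose channel holds back firing at low threshold and whose loss causes seizures, measured 7.14 to 7.72 on the 12 hippocampus arrays with a median of 7.24, and 10.75 to 11.47 with a median of 11.11 on the 10 arrays of hippocampal culture. In cortex it measured 7.11 to 7.95 (median 7.52), and in cortical culture 9.55 to 10.48 (median 10.07). No culture array came near a tissue array in either region. The differences were 3.78 ± 0.10 (SE; 13.8-fold; limma, adjusted p = 2.01e-28) and 2.53 ± 0.11 (5.77-fold; adjusted p = 2.04e-22). Its 2 other bright probe sets gave 4.24 and 4.18 log2 in hippocampus and 2.94 and 2.81 in cortex, and the last one, below background, gave -0.05 and -0.01.

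*Kcna2*, the usual partner of *Kcna1* in axonal channels, ranged from 5.56 to 6.37 in hippocampus (median 5.94) and from 7.66 to 8.65 in hippocampal culture (median 8.37). In cortex it ranged from 5.27 to 5.76 (median 5.58) and in cortical culture from 7.97 to 8.39 (median 8.19). The groups did not overlap, with differences of 2.31 ± 0.10 and 2.62 ± 0.11 log2 (limma, adjusted p = 7.93e-22 and 8.89e-23). A second probe set gave fitted differences of 2.52 and 3.11 log2, the second against cortex at background, whereas another one, just above background, gave 0.18 and 0.04, and the last, below it, 0.13 and 0.20.

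*Kcna4*, which forms a rapidly inactivating axonal channel, was close to background in tissue. It measured 4.54 to 5.42 in hippocampus (median 4.97), where 8 of 12 arrays were at background, and 4.28 to 5.78 in cortex (median 5.24), where 4 of 10 were. In hippocampal culture it measured 6.94 to 8.96 (median 8.49) and in cortical culture 8.00 to 8.93 (median 8.45). All culture arrays were above all tissue arrays, including the lowest, KO litter 2038 of hippocampal culture. The fitted differences were 3.28 ± 0.18 and 3.26 ± 0.19 log2 (limma, adjusted p = 6.01e-19 and 3.27e-18). With tissue arrays raised to the background level, the signal of this probe set was at least 8.45-fold higher in hippocampal culture. In cortical culture it was at least 8.72-fold higher. The other probe set of the gene, just above background in tissue, differed less, by 1.98 log2 (3.94-fold) in hippocampus and 1.63 (3.09-fold) in cortex.

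*Kcna6* encodes another delayed rectifier of this family. It ranged from 5.28 to 6.12 in hippocampus (median 5.67), from 7.05 to 7.78 in hippocampal culture (median 7.49), from 6.43 to 6.83 in cortex (median 6.69) and from 7.01 to 8.10 in cortical culture (median 7.53). Culture stood above tissue without overlap in both regions, by 1.73 ± 0.12 and 0.86 ± 0.12 log2 (limma, adjusted p = 4.70e-16 and 1.02e-07). Its 2 other probe sets are dim: one differed by 0.39 and 0.31 log2, the other by 0.05 and 0.20.

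The other Kv1 genes moved little. *Kcna3*, known from T cells and microglia, was higher in culture by fitted differences of 0.46 and 0.20 log2 (limma, adjusted p = 2.75e-10 and 0.00116). With 8 of 12 hippocampus arrays and 1 of 10 cortex arrays at background, these amount to at least 1.31-fold and at least 1.15-fold. *Kcna7*, a muscle form, differed by 0.01 log2 in hippocampus (95% confidence interval -0.10 to 0.12) and by -0.03 in cortex (-0.14 to 0.09). *Kcna5*, known from heart, was below background on all arrays.

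*Kcna1*, *Kcna5* and *Kcna6* are neighbours within 208 kb of chromosome 6 (chr6:126532551-126740834, GRCm38.p6). *Kcna3*, *Kcna2* and *Kcnc4* lie within 424 kb of chromosome 3 (chr3:107036162-107460287). In hippocampus the differences of the neighbours *Kcna1* and *Kcna6* were 3.78 and 1.73 log2, and those of *Kcna3*, *Kcna2* and *Kcnc4* were 0.46, 2.31 and 2.47; *Kcna5* is at background.

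All 3 Kv3 genes were higher in both cultures. *Kcnc4*, whose channel inactivates quickly, ranged from 5.72 to 6.16 in hippocampus (median 5.94) and from 8.14 to 8.60 in hippocampal culture (median 8.46). In cortex it ranged from 5.57 to 6.34 (median 5.81) and in cortical culture from 7.52 to 8.46 (median 8.01). Cultures and tissues did not overlap, and the differences were 2.47 ± 0.09 and 2.18 ± 0.10 log2 (limma, adjusted p = 3.69e-24 and 8.91e-22). The other probe set of the gene, dimmer but above background, gave 0.75 and 0.49 log2.

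*Kcnc1*, the main subunit of fast-spiking neurons, ranged from 6.27 to 6.89 in hippocampus (median 6.61) and from 7.59 to 8.35 in hippocampal culture (median 8.18). In cortex it ranged from 6.60 to 7.08 (median 6.82) and in cortical culture from 7.60 to 8.23 (median 7.99). These ranges were also separate, at 1.54 ± 0.09 and 1.13 ± 0.09 log2 (limma, adjusted p = 4.20e-18 and 1.53e-13). Its other bright probe sets gave 1.61 and 1.42 log2 in hippocampus and 1.18 and 0.997 in cortex, and one near background gave 0.16 and 0.01. Of 4 markers of fast-spiking interneurons, *Pvalb* and *Erbb4* were at background in all 8 groups and the other 2 above it. The summed level of the 4 was 7.71 to 8.58 in hippocampal culture against 8.76 to 9.46 in hippocampus. In cortical culture it was 8.71 to 9.34 against 9.23 to 9.39 in cortex. By gene, 2 of the 4 were higher and 2 lower in hippocampal culture, and 1 was higher and 1 lower in cortical culture. The part of these markers in the difference was not tested. *Kcnc2*, found in interneurons and thalamic relay cells, was higher by 0.49 ± 0.14 and 0.81 ± 0.15 log2 (adjusted p = 0.00247 and 9.65e-06), with overlapping arrays in both regions.

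The Kv4 genes were likewise higher in both cultures. *Kcnd2*, the chief subunit of the dendritic A-type current in hippocampal pyramidal cells, ranged from 7.66 to 9.12 in hippocampus (median 8.05) and from 9.87 to 10.32 in hippocampal culture (median 10.02). In cortex it ranged from 8.00 to 8.88 (median 8.61) and in cortical culture from 9.87 to 10.76 (median 10.11). Tissue arrays spread more widely than culture arrays in hippocampus, but no tissue array reached a culture array. The differences were 1.79 ± 0.14 and 1.60 ± 0.14 log2 (limma, adjusted p = 1.53e-14 and 1.36e-12). Other bright probe sets of *Kcnd2* gave 2.30 and 2.01 log2 in hippocampus and 2.09 and 1.82 in cortex. A probe set below background gave -0.05 and -0.15. *Kcnd3* was higher by 0.94 and 0.96, just under 2-fold, with no overlap, and *Kcnd1* by 0.78 and 0.60.

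Of the *Kcnh* genes, *Kcnh1* rose by over 2-fold and *Kcnh8* fell to background. *Kcnh1*, the EAG channel, ranged from 5.50 to 6.12 in hippocampus (median 5.78) and from 7.39 to 8.31 in hippocampal culture (median 7.63). In cortex it ranged from 5.21 to 5.89 (median 5.44) and in cortical culture from 6.78 to 7.91 (median 7.34). Culture was higher without overlap, by 1.88 ± 0.10 and 1.83 ± 0.11 log2 (limma, adjusted p = 9.36e-19 and 1.03e-17). The other probe set of *Kcnh1* gave 2.18 log2 in hippocampus, and 2.18 in cortex, where tissue was at background.

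*Kcnh8*, an ELK channel, was the member that fell. It ranged from 5.57 to 6.23 in hippocampus (median 6.00) and from 5.26 to 6.20 in cortex (median 5.74). In hippocampal culture it ranged from 3.92 to 4.36 (median 4.22) and in cortical culture from 3.94 to 4.68 (median 4.31). Every culture array was below background, so the difference is a bound: the signal was at least 1.79-fold lower in hippocampal culture and at least 1.498-fold lower in cortical culture. The fitted values fell by 1.81 and 1.42 on the log2 scale (limma, adjusted p = 7.49e-20 and 5.48e-16). *Kcnh3*, the other ELK gene above background, was higher in culture by 0.60 and 0.81 log2. Another of its probe sets gave 1.29 and 1.91 log2. A further one, at background in tissue, gave 1.39 and 1.97, and the last, below background, gave 0.02 and 0.07. *Kcnh2*, the ERG channel known from the heart, was higher by 0.34 and 0.19 log2 (adjusted p = 9.46e-05 and 0.0276), the latter lost when each array was centred on its median and when some single arrays were left out.

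Of the M-current genes, *Kcnq5* differed most between regions. It ranged from 4.69 to 5.99 in hippocampus (median 5.22) and from 9.33 to 10.45 in hippocampal culture (median 10.17). In cortex it ranged from 7.09 to 8.18 (median 7.58) and in cortical culture from 8.63 to 9.44 (median 8.86). Hippocampus arrays were lowest of all, 5 of 12 at background, and hippocampal culture arrays were mostly highest. The differences were 4.87 ± 0.15 (29.3-fold) in hippocampus and 1.34 ± 0.16 (2.53-fold) in cortex (limma, adjusted p = 1.33e-26 and 1.17e-09). With the dim arrays at the background level, the difference in hippocampus was at least 27.0-fold on this probe set. Another probe set, above background in all systems, gave 2.84 log2 (7.18-fold) in hippocampus and 1.29 in cortex. The last one gave 3.60 log2 against hippocampus at background, and 0.76 in cortex.

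*Kcnq3* was higher in hippocampal culture than in hippocampus by 0.80 ± 0.19 log2 (limma, adjusted p = 4.12e-04), and in cortex the difference was 0.09 (95% confidence interval -0.32 to 0.50). Culture arrays of this gene were spread widely, from 8.86 to 10.32 in hippocampal and from 8.36 to 10.19 in cortical culture, where tissue arrays spanned 8.73 to 9.29 and 9.01 to 9.73. The lowest culture arrays were those of KO litter 2221 in both regions. A second, dimmer probe set of the gene differed by 0.02 log2 in hippocampus and by -0.42 in cortex.

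Other potassium channel genes and partners were counted from lists of their own. Modifier alpha subunits, which are silent alone and alter other Kv channels, were higher in hippocampal culture in 9 of 9 cases and in cortical culture in 7 of 9, where 35.9% and 35.3% of all genes were, and 5 of the 9 were above background in some group. *Kcns2* differed by 2.34 and 1.77 log2. Auxiliary subunits, 10 of 15 above background, were mixed, with 8 higher and 4 lower in hippocampal culture and 8 higher and 2 lower in cortical culture; *Kcnab2*, a Kv1 beta subunit, was higher by 2.16 in cortical culture and had a mean of 8.22 in hippocampal culture, against one at background in hippocampus, and *Dpp6*, a partner of Kv4 channels, was higher by 1.69 and 1.89. Of 7 genes for proteins that cluster Kv1 channels on axons, all above background, 5 were higher in each culture, 2 lower in hippocampal and 1 lower in cortical culture. *Lgi1*, a secreted partner of these channels, was 11.4-fold and 5.28-fold higher, and *Cntn2*, an axonal adhesion molecule, was 7.89-fold lower in cortical culture. Inward rectifier, two-pore and calcium- or sodium-activated channels were higher in 18 and lower in 5 of 34 cases in hippocampal culture, and in 16 and 8 in cortical culture, with 24 of the 34 above background. Of all genes, 35.9% were higher and 36.2% lower in hippocampal culture, and 35.3% higher and 35.9% lower in cortical culture. *Kcnma1*, the large-conductance calcium-activated channel, was higher by 3.93 and 2.74. The medians of the modifier, auxiliary, clustering and other channel lists in hippocampus were 1.12, 0.22, 1.66 and 0.16 log2, beside 0.79 for the Kv members.

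The next question was whether the step from tissue to culture was alike in hippocampus and cortex, which was tested as a difference of differences. For 9 of the 22 members it differed at an adjusted p under 0.05 (limma), against 32.0% of all genes. *Kcnq5* had the largest difference, 3.54 ± 0.22 log2 (adjusted p = 4.18e-15). It was followed by *Kcna1* at 1.26 ± 0.15 (adjusted p = 1.87e-08) and *Kcna6* at 0.87 ± 0.17 (adjusted p = 1.45e-04), all 3 with the larger step in hippocampus. Smaller were *Kcna5*, at background throughout (-0.53), *Kcnc1* (0.40 ± 0.13, adjusted p = 0.0172; 0.15 on its probe set near background) and *Kcnh8* (-0.39 ± 0.13, adjusted p = 0.0271). *Kcnh8* did not pass without the cortex array of KO litter 4236 (-0.33), after centring each array (-0.33) or with array weights (-0.31), and its culture values are below background. *Kcna3* (0.26), *Kcnh5* (0.30) and *Kcnq1* (-0.27) completed the set, the last 2 at background. With litter as a block *Kcnq1* was lost (adjusted p = 0.0635), while *Kcnh3* (adjusted p = 0.0331) and *Kcnq3* (adjusted p = 0.0466) passed. Without the block, another probe set of *Kcnh3* passed at -0.62 log2 (limma, adjusted p = 0.00453). So did one at background in tissue, at -0.57 (limma, adjusted p = 0.0134).

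For *Kcnq5* the result was read on 3 probe sets, which gave differences of 3.54, 2.84 and 1.55 log2, the second with hippocampus at background. The dim probe sets of *Kcna6* gave 0.08 and -0.15. On their brightest probe sets, the interval of the difference ran from -0.52 to 0.54 log2 for *Kcna4*, from -0.26 to 0.36 for *Kcnh1* and from -0.19 to 0.17 for *Kcnd3*. Other probe sets reached further, at 0.35 (-0.12 to 0.81) for *Kcna4* and -0.40 (-0.75 to -0.04) for *Kcnd3*, the latter with cortex at background. *Kcna4* was partly at background in tissue, so its interval sets no limit on a difference between regions.

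**Figure D3:**
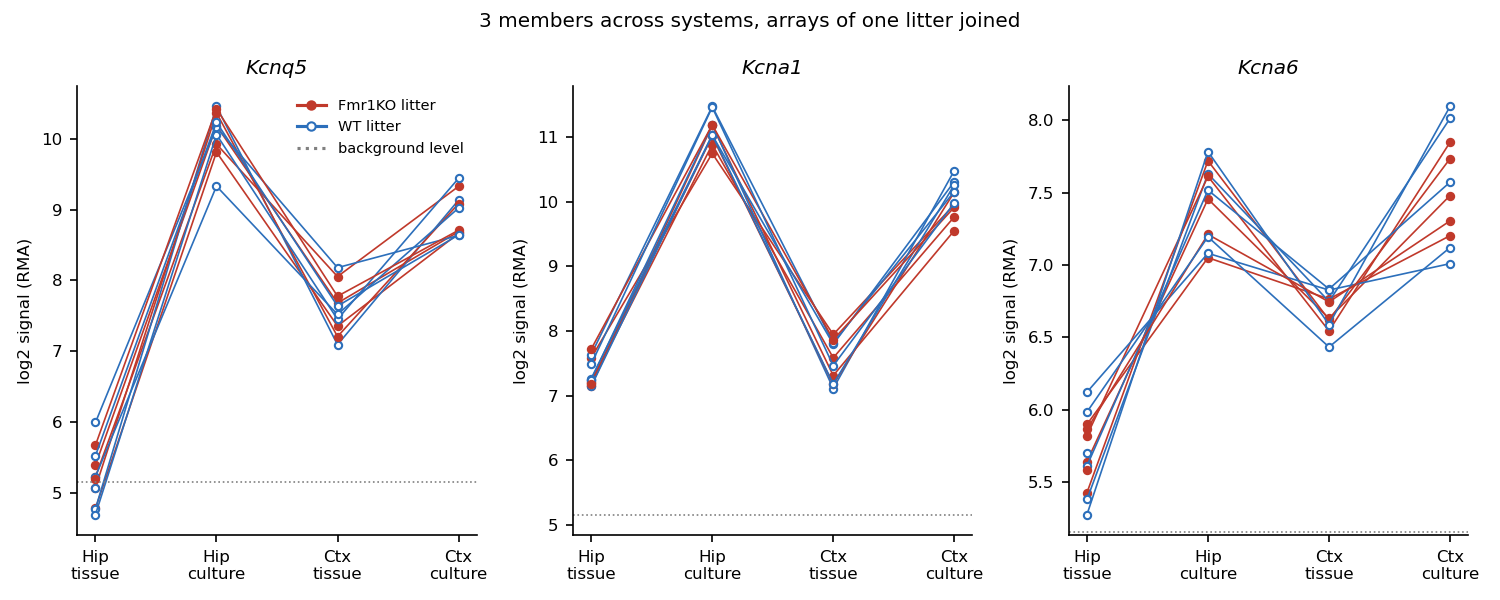
Log2 signal of *Kcnq5*, *Kcna1* and *Kcna6* in the 4 systems, with arrays of one litter joined (red filled, *Fmr1*KO; blue open, WT) and the background level dotted. Each litter with both arrays rises from hippocampus to hippocampal culture, and for *Kcnq5* each is lower in hippocampus than in cortex but higher in hippocampal than in cortical culture.

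Hippocampus was then compared with cortex within tissue. At an adjusted p under 0.05 (limma) 5 members were higher in hippocampus (*Kcna2*, *Kcna5*, *Kcnd3*, *Kcnh1* and *Kcnh8*), against 19.7% of all genes, and 6 lower (*Kcna3*, *Kcna6*, *Kcnc1*, *Kcnh2*, *Kcnh5* and *Kcnq5*), against 16.7%. Differences of 0.5 log2 or more were found for *Kcnq5* and *Kcna6*. *Kcnq5* was lower in hippocampus by 2.38 ± 0.15 log2 (adjusted p = 6.85e-16) and by at least 4.78-fold with dim arrays at the background level. All 12 hippocampus arrays were below all 10 cortex arrays. The other probe sets gave fitted differences of -1.26 and -0.99, the first with hippocampus at background and cortex (5.33) just above it. *Kcna6* was lower by 0.98 ± 0.12 log2 (adjusted p = 1.57e-08), also without overlap. Its dim probe sets gave -0.13 and -0.0033. *Kcna5*, at background, did not pass with litter as a block (adjusted p = 0.114), and neither *Kcna5* nor *Kcnh8* passed without the cortex array of WT litter 2643 or without that of WT litter 3569, which left 3 higher members. *Kcnc1* did not pass without the cortex arrays of KO litters 2037 or 2038 or WT litters 3569 or NT, nor without the hippocampus arrays of KO litters 2221 or 2620 or WT litter 2236. *Kcnh8* was also lost without KO litters 2038, 2221 or 4236 in cortex, or KO litter 2037 or WT litters 2236 or 2644 in hippocampus.

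The regions were also compared in culture, where the order was reversed for *Kcnq5*. Higher in hippocampal than in cortical culture were 5 members (*Kcna1*, *Kcnc4*, *Kcnd3*, *Kcnh1* and *Kcnq5*), against 14.7% of all genes, and 4 were lower (*Kcna5*, *Kcnc2*, *Kcnh3* and *Kcnh5*), against 13.5%. *Kcnq5* was now higher by 1.16 ± 0.16 log2 (adjusted p = 2.90e-07), with a small overlap between regions but higher in hippocampal culture in 10 of 10 litters. *Kcna1* was higher by 1.07 ± 0.11 log2 (limma, adjusted p = 3.04e-10) with no overlap, after tissue values that overlapped and differed by -0.19 (95% confidence interval -0.39 to 0.02). *Kcnc2* was lower by 0.53 ± 0.15 log2 (adjusted p = 0.00690), in 10 of 10 litters and with overlap; in tissue the difference was -0.21 (-0.50 to 0.07). *Kcna6* no longer stood apart (-0.11, from -0.36 to 0.14). Other bright probe sets of *Kcnh3* differed between the cultures by -0.73 and -0.82 log2. *Kcnd3* and *Kcnh1* were the members higher in hippocampus both in tissue (0.40 and 0.35 log2) and in culture (0.38 and 0.40). With litter as a block *Kcnh5*, at background, was lost (adjusted p = 0.0569) and *Kcnq1*, at background, passed (adjusted p = 0.0453).

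Markers of other cells moved with region too. In culture 8 of 8 GABAergic markers were lower in the hippocampal one, with summed levels of 11.22 to 12.28 against 12.33 to 12.82 in cortical culture and *Dlx2* at background. In tissue 7 of 8 were lower in hippocampus, at 9.56 to 11.48 against 10.93 to 11.77. Neuron markers were lower in hippocampus than in cortex in 6 of 7 cases, and higher in hippocampal than in cortical culture in 3 of 7. Glutamatergic markers had a median summed level of 13.19 in hippocampal and 12.32 in cortical culture, with 3 of 4 genes higher and 1 lower. Astrocyte markers stood at a median of 12.18 in hippocampus and 10.55 in cortex, with 4 of 7 higher and 1 lower. Choroid plexus markers ranged from 10.73 to 13.80 in hippocampus and from 6.71 to 12.06 in cortex (medians 12.14 and 7.15), with 4 of 5 higher, and those of meninges and fibroblasts from 8.87 to 9.87 and from 6.71 to 7.61, with 4 of 4 higher. Oligodendrocyte lineage markers were lower in 6 of 6 cases in hippocampal than in cortical culture. Their part in the regional differences of the channels was not tested. The 6 hippocampal identity markers were all higher in hippocampus and in hippocampal culture, with *Lef1* at background in both cultures. Of 4 neocortical identity markers, 3 were lower in hippocampus than in cortex. Between the cultures, 3 of them were lower and 1 higher in the hippocampal one.

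**Figure D4:**
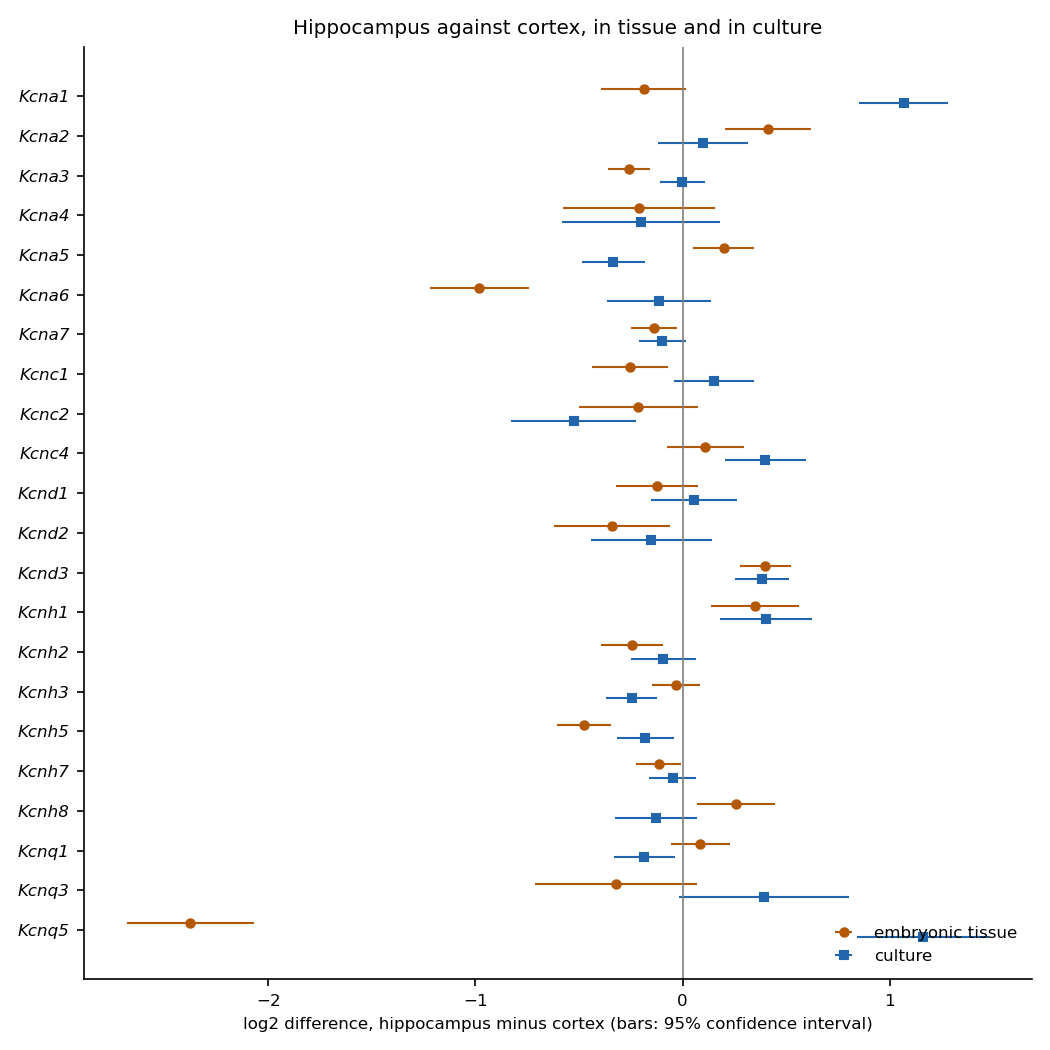
Hippocampus minus cortex difference of each member on the log2 scale, in embryonic tissue (brown circles) and in culture (blue squares), with 95% confidence intervals from limma. *Kcnq5* lies at -2.38 in tissue and 1.16 in culture, *Kcna6* leaves zero only in tissue and *Kcna1* only in culture.

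Last, the genotypes were compared within every system. Members with an unadjusted p under 0.05 were counted, the kind of threshold that the methods name. Few members passed, and none at an adjusted p under 0.05 in any system. There were 2 of 22 in hippocampal culture, against 9.54% of all genes, 3 in cortical culture, against 10.2%, none in hippocampus, against 1.54%, and 2 in cortex, against 1.66%. In exact two-sided permutation tests of all 88 pairs of member and system, the smallest p was 0.0159, and after Benjamini-Hochberg adjustment 0.873; 5 arrays against 5 allow no p under 0.00794.

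In hippocampal culture *Kcnc2* was higher in *Fmr1*KO. The KO arrays measured 7.89, 7.98, 8.07, 8.40 and 8.71, and the WT arrays 7.43, 7.61, 7.74, 7.91 and 8.02. The ranges overlap, with KO litter 2038 highest. The difference was 0.47 ± 0.21 log2 (limma, p = 0.0327, adjusted p = 0.517; exact permutation p = 0.0397). It did not pass without KO litter 2038 (0.34), KO litter 4236 (0.42), WT litter 2644 (0.39) or WT litter NT (0.43), nor with array weights (0.42). In the same arrays 2 of 7 neuron markers, 2 of 4 glutamatergic markers, 1 of 8 GABAergic markers and 2 of 4 markers of immature neurons were higher in *Fmr1*KO at the same threshold and none lower, and the part of these in the difference was not tested.

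*Kcnd3* was lower in *Fmr1*KO hippocampal culture, with KO arrays at 10.44, 10.48, 10.50, 10.72 and 10.79 and WT arrays at 10.62, 10.67, 10.74, 10.89 and 10.95. It fell by 0.19 on the log2 scale (limma, p = 0.0470, adjusted p = 0.561; exact permutation p = 0.0873). With litter as a block, where no permutation test was run, limma's p was 0.0501 for *Kcnd3*, while *Kcnh3*, at -0.17 log2 and p = 0.0503 without the block (exact permutation p = 0.0556), reached 0.0407 with it. *Kcnd3* did not pass without KO litters 2037 (-0.16), 2221 (-0.16) or 4236 (-0.15), or without WT litters 2643 (-0.16), 2644 (-0.14) or 3569 (-0.19).

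In cortical culture *Kcna1* and *Kcnh1* were lower in *Fmr1*KO. *Kcna1* measured 9.55, 9.77, 9.91, 9.96 and 10.15 in KO and 9.98, 10.16, 10.26, 10.31 and 10.48 in WT, and fell by 0.37 on the log2 scale (limma, p = 0.0183, adjusted p = 0.432; exact permutation p = 0.0159). *Kcnh1* measured 6.78, 6.85, 7.17, 7.34 and 7.37 in KO and 7.25, 7.35, 7.47, 7.52 and 7.91 in WT, and fell by 0.40 (limma, p = 0.0141, adjusted p = 0.424; exact permutation p = 0.0397). KO litter 2620 stood above the lowest WT array for *Kcna1*, as did KO litters 2620 and 2038 for *Kcnh1*. *Kcna1* did not pass without KO litter 2037 (-0.29) or WT litter 2236 (-0.31), nor *Kcnh1* without KO litter 2221 (-0.32) or WT litter 2643 (-0.30), and with array weights neither did. *Kcnh7*, at background on all arrays, had a difference of -0.21 log2 (limma, p = 0.0117, adjusted p = 0.407; exact permutation p = 0.0317), and did not pass without KO litter 2221 (-0.16). The other bright probe sets gave -0.46 and -0.36 log2 for *Kcna1* and -0.41 for *Kcnh1*, each past the same threshold. The same genes in hippocampal culture gave -0.24 (95% confidence interval -0.54 to 0.07) for *Kcna1* and -0.14 (-0.46 to 0.17) for *Kcnh1*.

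In cortex *Kcnc4* was lower in *Fmr1*KO, at 5.57, 5.60, 5.67, 5.82 and 5.92 in KO against 5.65, 5.81, 5.90, 6.28 and 6.34 in WT. It fell by 0.28 on the log2 scale (limma, p = 0.0466, adjusted p = 1; exact permutation p = 0.127), and its other probe set gave 0.02. The WT arrays of litters 2236 and 2644 were the high ones, and without either the difference did not pass (-0.21 and -0.19); the same held without KO litters 2221 (-0.27), 2620 (-0.25) or 4236 (-0.24). *Kcnh7*, at background, was higher by 0.17 (limma, p = 0.0356, adjusted p = 1; exact permutation p = 0.0794), opposite to its sign in cortical culture, and did not pass without KO litters 2038 or 2620 or WT litters 2236, 2644 or 3569 (0.13 to 0.17). The difference of KO effects between systems was tested for all members and all 6 pairs of systems, 132 tests in all, and 0 passed an adjusted p under 0.05.

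The mRNAs of *Kcnd2* and *Kcnc1* have been described as targets of FMRP. *Kcnd2* differed between *Fmr1*KO and WT by -0.06 log2 in hippocampal culture (95% confidence interval -0.47 to 0.35), -0.15 in cortical culture (-0.56 to 0.26), 0.06 in hippocampus (-0.31 to 0.44) and -0.12 in cortex (-0.53 to 0.29). *Kcnc1* differed by 0.05 (-0.22 to 0.32), -0.02 (-0.29 to 0.25), -0.02 (-0.27 to 0.22) and -0.04 (-0.31 to 0.23). Other bright probe sets of *Kcnd2* differed more in cortical culture, by -0.64 (-1.22 to -0.06) and -0.47 (-0.92 to -0.02), both past the unadjusted threshold with adjusted p of 0.476 and 0.497 (limma), so that a fall of the mRNA there, even by 2-fold, lies within one of the intervals. In the other systems these probe sets gave -0.36 and -0.17 in hippocampal culture, -0.07 and 0.11 in hippocampus and -0.35 and -0.08 in cortex, and none passed. The other bright probe sets of *Kcnc1* lay between -0.30 and 0.11 in the 4 systems, and none passed. Protein was not measured. *Kcna4*, which did not pass on its brightest probe set in hippocampal culture (-0.48, from -1.02 to 0.06), did on its other one (-0.50, from -0.98 to -0.03; limma, adjusted p = 0.536). *Kcnq5*, which differed most between systems, gave 0.09, -0.08, 0.01 and 0.04 log2 between genotypes in the same order.

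**Figure D5:**
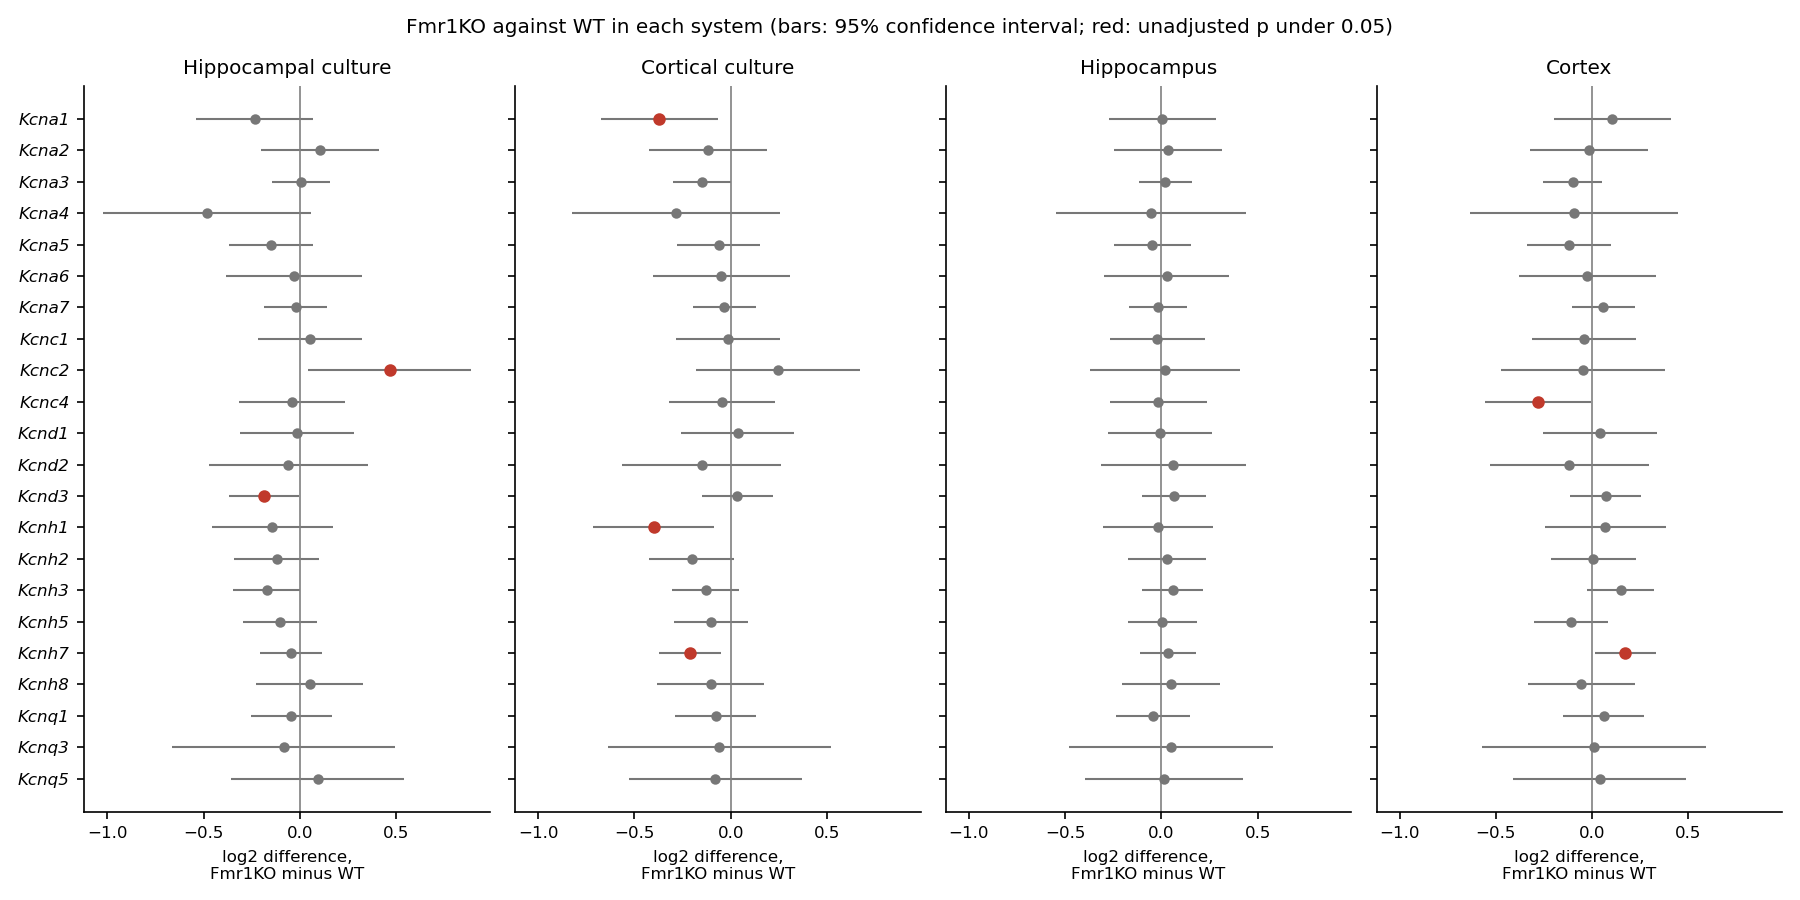
*Fmr1*KO minus WT difference of each member on the log2 scale in the 4 systems, with 95% confidence intervals from limma; red points passed an unadjusted p under 0.05. No red point stands in the hippocampus panel, and none passed an adjusted p under 0.05.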

How the data were processed

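Total RNA of each sample had been hybridized to Affymetrix Mouse Genome arrays, 42 in all. The authors deposited log2 values made with RMA (background correction, quantile normalization and summary per probe set; version and the arrays normalized together are not given in the sources used here), and these were taken as they are. Quantile normalization makes array distributions alike, so a general shift in RNA content is not seen. Arrays have no read depth; their number limits the precision. Of 45101 probe sets, 64 controls were left out; of the rest, 34945 carry 1 gene, 932 several and 9160 none in the platform annotation, which can be old and gave the gene symbols. The probe set of highest mean stood for a gene. For background, 123 probe sets of olfactory, vomeronasal and keratin-associated genes were averaged over the arrays, and the level that 95% of them stay under was taken.

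Groups follow the labels. limma 3.58.1 in R 4.3.3 fitted all 8 groups together (lmFit, as in the study's methods, which name no groups or covariates; default eBayes); p-values were adjusted by Benjamini-Hochberg over 45037 probe sets. Arrays of a group have different mouse IDs. The labels give a mouse ID, read here as the litter, that recurs across systems. Deviations from group means of arrays of 1 ID correlated at 0.22 to 0.53 between hippocampus and cortex (10 of 10 best with their own). Between the cultures they correlated at -0.32 to 0.67 (4 of 10). Between culture and tissue they correlated at -0.07 to 0.13 in hippocampus (1 of 10) and at -0.22 to 0.27 in cortex (2 of 10). A shared litter is thus hardly seen between culture and tissue. Alternatives were array centring, a trended and robust variance, array weights, the compared arrays alone, all probe sets of a gene averaged, a background filter, a litter block and each array left out. The fit was tested on simulated data.

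Genes were named by rule: members at least 2-fold different between culture and tissue, 0.5 log2 between regions, the 6 largest differences of differences, all past p in *Fmr1*KO against WT, and up to 4 genes of a related list; *Kcnd2* and *Kcnc1* were added to the last comparison for what is known of them. The members and lists were chosen with earlier results of these data known. Promoter windows are those of RefSeq (GRCm38.p6), matched by gene ID. Permutation tests and figures used Python 3.11.15, SciPy 1.17.1 and Matplotlib 3.10.9.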

Additional observations from a re-analysis of the deposited data

Results flagged for a closer look

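A lone array stood apart from the others of its group in 5 of 136 pairs of member and group above background, by Dixon's ratio at its 95% level, at which chance alone marks about 1 group in 20. In cortex, *Kcnd2* was high in KO litter 2037 (8.87, the others 8.37 to 8.51) and low in WT litter 2643 (8.00, the others up to 8.88 with the nearest at 8.71). *Kcnh2* was low in the same WT litter 2643 (6.16, nearest 6.35), and *Kcnq3* high in KO litter 2038 (9.53, nearest 9.30). In cortical culture, *Kcna3* was low in WT litter 3569 (5.44, nearest 5.66).

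The step from tissue to culture differed between hippocampus and cortex, by a test of the difference itself, for *Kcnq5* (3.54 log2, larger in hippocampus), *Kcna1* (1.26), *Kcna6* (0.87), *Kcnc1* (0.40), *Kcnh5* (0.30), *Kcna3* (0.26), *Kcnq1* (-0.27), *Kcnh8* (-0.39) and *Kcna5* (-0.53). *Kcna5*, *Kcnh5* and *Kcnq1* are at background in every group. No difference between systems in the effect of *Fmr1*KO passed for a member.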

How the results depend on the processing

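Under the alternatives tried no named difference changed its sign, except on some other probe sets of the gene, most of them dim: *Kcna1* gave -0.0458 and -0.00778 for culture against tissue in hippocampus and cortex, -0.0777 between cultures and -0.0380 for the difference of differences, *Kcnd2* -0.0494 and -0.150 for culture against tissue, *Kcna6* -0.15 for the difference of differences, *Kcnd3* 0.00318 in *Fmr1*KO hippocampal culture and *Kcnc4* 0.0218 in *Fmr1*KO cortex. With probe sets above background alone, 1 member was lower in each culture and 2 lower in hippocampal than in cortical culture. Leaving out single arrays gave 18 and 16 to 18 members higher and 2 lower in hippocampal and cortical culture, 3 to 5 higher and 5 to 8 lower in hippocampus than in cortex, 5 higher and 3 to 4 lower in hippocampal than in cortical culture, and 8 to 11 for the difference of differences. For *Fmr1*KO against WT, leaving out single arrays gave 1 to 3 members in hippocampal culture, 1 to 5 in cortical culture, 0 in hippocampus and 0 to 2 in cortex. In hippocampal culture 1 member passed after centring each array, with array weights, with the compared arrays alone and with the background filter, and with array weights this was *Kcnh3*. Array weights left 1 in cortical culture. In cortex 1 passed after centring, with the mean of all probe sets and with the background filter, and 0 with the compared arrays alone. At an adjusted p under 0.05 there were 0 in each. The replicate block by litter gave 18 higher and 2 lower members in either culture, and, as a random block, 2, 3, 0 and 2 members past p in the systems; beyond the calls named beside the results it changed no other. The cause of these changes was not tested. Arrays give no depth, and members at background have no order there.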
